A study of Mus musculus with 9 samples.

Results

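The clustered protocadherins are cell-surface adhesion proteins of the cadherin family whose genes lie side by side in an alpha, a beta and a gamma cluster. All genes whose symbols name an alpha, beta or gamma protocadherin were taken from the count tables, which gave 58 of the 25239 gene symbols listed there: 14 alpha, 22 beta and 22 gamma genes. Each of the 58 genes is on chromosome 18 in the RefSeq annotation of GRCm38.p6, the assembly of mm10. Those with an entry in the GENCODE M21 annotation are on the plus strand there. The alpha genes span positions 36930285 to 37188897, the beta genes 37264998 to 37521419 and the gamma genes 37661775 to 37841873.

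RNA was sequenced from 3 lines of E14 mouse embryonic stem cells of strain 12910la, with 3 libraries from each line, and all of them grew in serum with leukemia inhibitory factor. The control line is Rbbp4+/+. The Rbbp4 Ins/Ins line carries a small in-frame insertion on both alleles of Rbbp4, and the Rbbp4 Ins/Del line carries the same insertion on one allele and an in-frame deletion on the other. Rbbp4 encodes a histone-binding subunit of Polycomb repressive complex 2 and of histone deacetylase complexes. Both mutant lines were made with CRISPR-Cas9 and each is 1 clone, so that effects of the genotype and of the clone cannot be told apart. The sources do not say that the libraries of a line came from separate cultures, so the p-values measure the spread between these libraries, which may be technical.

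Each library held between 15838064 and 21366868 reads counted to genes. Rbbp4 itself had 9932 to 10117 normalized counts (reads scaled to a common library size) in the control libraries, 5485 to 5776 in Ins/Ins and 10129 to 10603 in Ins/Del. An in-frame change does not remove the transcript, so the Rbbp4 count does not check the labels. The embryonic stem cell marker list (Pou5f1, Sox2, Nanog, Zfp42, Esrrb, Klf4, Tdgf1 and Dppa5a) summed to 5058 to 5316 CPM (counts scaled to the library total) in control, 6291 to 6344 in Ins/Ins and 6251 to 6405 in Ins/Del. All 8 genes passed the filter on low counts, and 6 were higher and 1 lower in Ins/Ins, while 5 were higher and 0 lower in Ins/Del. Of all tested genes, 29.0% were higher and 29.4% lower in Ins/Ins, and 30.6% and 31.9% in Ins/Del.

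Clustered protocadherins bind the same isoform on a facing membrane, and neurons use combinations of isoforms to tell their own branches from those of other cells. In neurons each promoter of a cluster is switched on in some cells and not in others, a choice that depends on promoter DNA methylation and on looping to distal enhancers by the CTCF protein and cohesin. An alpha or gamma transcript joins 1 variable exon, which has its own promoter and encodes the extracellular domain, to constant exons that all genes of the cluster share, whereas a beta gene is a single exon without shared constant exons. The last genes of the alpha and gamma clusters, called C-type, are used more uniformly across neurons than the others.

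The shared exons limit what a gene count can hold. By the GENCODE M21 annotation, between 33.2% and 68.5% of the exonic bases of a gamma gene are its own, and the remainder also belongs to exons of other genes on the same strand. For the alpha genes the share of own bases ran from 8.56% to 70.8%, and for the beta genes from 90.3% upwards. Pcdha10 has no entry under that symbol in GENCODE M21, so these shares cover 57 of the 58 genes. Opposite-strand genes overlap 4 alpha genes, 1 beta gene and 8 gamma genes, in the gamma cluster by up to 55.2% of exonic bases. The strand setting of the counting is not given, so the cluster sums may hold reads of such genes. In control replicate 2, Pcdhga6 had 0 reads while the gamma genes together had 574, so reads on the shared constant exons were not credited to every gene. The counts below therefore follow mainly the variable exons, and transcripts of a cluster that show only constant exons are not in them. RefSeq lists 3 genes, Gm37013, Gm38666 and Gm38667, that start within the alpha cluster and end at the last base of the gamma cluster, and each had 0 reads in all 9 libraries. No sequence of a cluster gene was analysed here.

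In these stem cells the gamma cluster was read, the beta cluster was close to the limit of counting and the alpha cluster was at it. Over the 3 control libraries the 14 alpha genes had 20 reads in all (exact Poisson 95% interval 12.2 to 30.9), the 22 beta genes 88 reads (70.6 to 108) and the 22 gamma genes 1988 reads (1902 to 2077). These intervals cover counting error only. Of the 58 genes, 8 had no read in any library (5 alpha and 3 beta). In all, 27 genes (13 alpha and 14 beta) never rose above 3 reads in a library, a level at which they cannot be told from 0 at this depth. The other 22 gamma genes, 8 beta genes and 1 alpha gene exceeded it in at least 1 library. In bulk RNA, fewer cells that express a gene and less RNA per cell cannot be told apart.

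**Figure D1:**
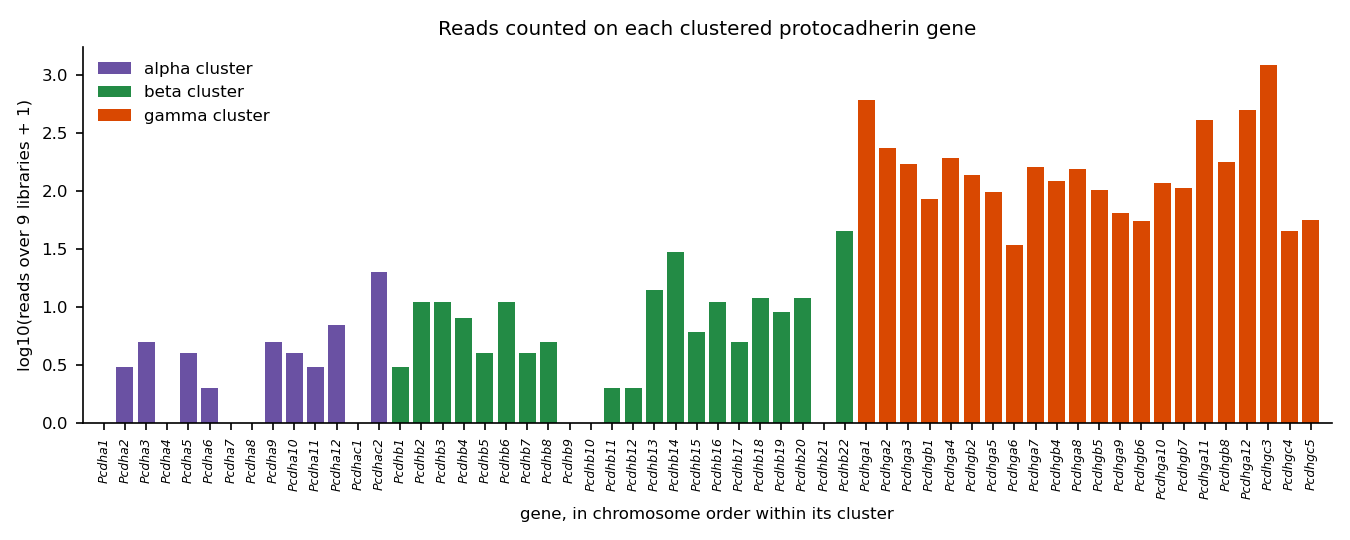
Reads counted on each of the 58 genes, summed over the 9 libraries, as log10(reads + 1), with genes in chromosome order within each cluster and bars coloured by cluster. Pcdhgc3 had the most reads at 1225, followed by the gamma genes Pcdhga1, Pcdhga12 and Pcdhga11, while no alpha gene exceeded 19 reads and no beta gene exceeded 44.

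Over the 9 libraries, Pcdhac2 had more reads than any other alpha gene, at 19. It is a C-type gene known for the even spacing of serotonergic axons. It had 2, 3 and 4 reads in the control libraries, 0, 0 and 1 in Ins/Ins, and 4, 4 and 1 in Ins/Del. Its Ins/Ins libraries lay below each control library, but all of these values are within a few reads of 0 and the gene did not pass the filter on low counts. Pcdhac1, the other alpha C-type gene, had 0 reads in all 9 libraries. Pcdha12 had 0, 2 and 2 reads in the control libraries, 0 in each Ins/Ins library, and 0, 0 and 2 in Ins/Del. Pcdha9 had a single read in 4 of the 9 libraries and none in the others. Summed over the cluster there were 20 reads in control, 7 in Ins/Ins (interval 2.81 to 14.4) and 17 in Ins/Del (9.90 to 27.2), and the libraries of the mutants overlapped those of the control. A difference in the alpha genes was not detectable at this depth.

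The beta cluster had 42, 18 and 28 reads in the control libraries, 19, 19 and 17 in Ins/Ins, and 16, 13 and 14 in Ins/Del. The summed normalized counts were 28.4 ± 8.69 in control, 18.6 ± 2.64 in Ins/Ins and 14.8 ± 2.63 in Ins/Del (mean ± SD, n = 3 each). Every Ins/Del library was below every control library, while the Ins/Ins libraries overlapped control replicate 2. A sum over genes was given no test.

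Pcdhb22, the last gene of the beta cluster, had the most reads of it. It had 16, 6 and 6 reads in control, 3, 0 and 1 in Ins/Ins, and 6, 3 and 3 in Ins/Del. After normalization all 6 mutant libraries were below the control ones, although Ins/Del replicate 1 had 6 reads, as had control replicates 2 and 3. Without Pcdhb22 the log2 ratio of the summed beta counts was -0.17 in Ins/Ins, against -0.61 with it, and -0.87 in Ins/Del, against -0.94 with it, and then the Ins/Del libraries overlapped the control as well. Over all 22 beta genes the mean was below that of the control for 10 in Ins/Ins and for 13 in Ins/Del. Pcdhb2 and Pcdhb8 were, like Pcdhb22, below the control in each mutant library, but never above 4 reads. These were 3 of 22 beta genes in each mutant, where 34.2% of all tested genes lay so in Ins/Ins and 36.9% in Ins/Del. Those shares are of genes that passed the filter on low counts, whereas ties at 0 reads limit such a separation in the beta genes. Above every control library were 2 beta genes in Ins/Ins and 1 in Ins/Del, with Pcdhb13 above in both. Pcdhb14 had 5, 1 and 0 reads in control, 4, 3 and 6 in Ins/Ins, and 4, 4 and 2 in Ins/Del. Pcdhb13 had 0 reads in each control library, 3, 1 and 4 in Ins/Ins, and 1, 1 and 3 in Ins/Del. None of the 14 alpha or 22 beta genes passed the filter on low counts. When every gene with a read was kept in the edgeR fit, Pcdhb22 was called lower in Ins/Ins and no other alpha or beta gene was called in either mutant.

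**Figure D2:**
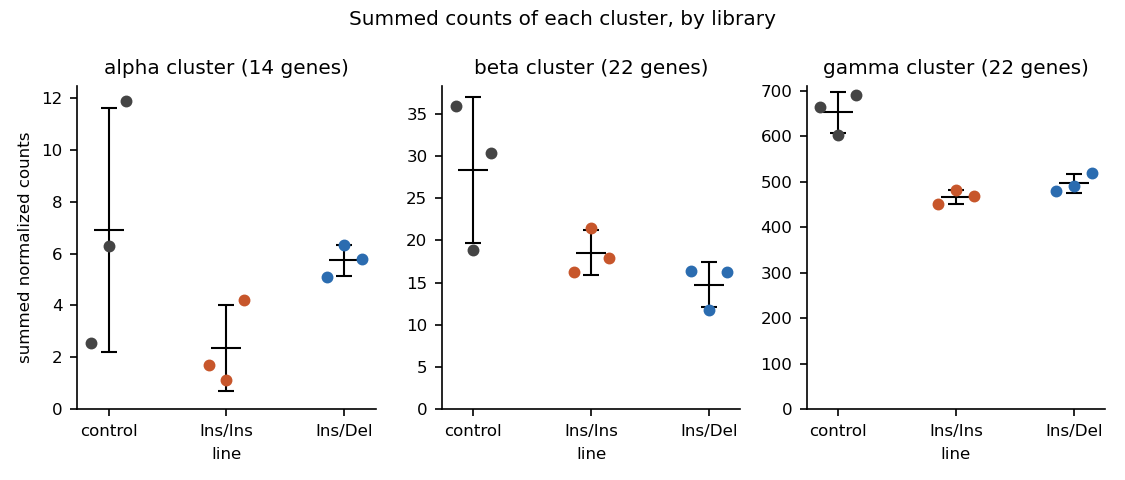
Normalized counts summed over the genes of each cluster in each library (points), with the mean and SD of each line (bars, n = 3) and separate linear vertical axes that start at 0. In the gamma panel both mutant lines lie below the control, at means of 466 and 496 against 652, while the alpha panel spans only 1.13 to 11.9 normalized counts and the beta panel 11.7 to 35.9.

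The gamma cluster was lower in both mutant lines. Its genes together had 776, 574 and 638 reads in the control libraries, 526, 426 and 442 in Ins/Ins, and 468, 544 and 449 in Ins/Del. After normalization the sums were 652 ± 45.8 in control, 466 ± 15.4 in Ins/Ins and 496 ± 21.1 in Ins/Del (SD, n = 3 each), so that none of the 6 mutant libraries reached a control library. The sum fell by 28.5% in Ins/Ins and fell by 23.9% in Ins/Del, log2 ratios of -0.48 and -0.39. In CPM the cluster made up 33.5 to 38.1 in control, 24.7 to 26.3 in Ins/Ins and 26.1 to 28.3 in Ins/Del. The mutant lines overlapped each other in the sum.

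The decrease differed in size between the gamma subfamilies, which are groups of related variable exons. The 7 B-type genes summed to 123 ± 19.7 normalized counts in control, 71.7 ± 3.83 in Ins/Ins and 62.3 ± 12.4 in Ins/Del, so the sum fell by 41.8% in Ins/Ins and fell by 49.5% in Ins/Del. The 12 A-type genes summed to 361 ± 18.1, 263 ± 4.33 and 288 ± 10.8, which fell by 27.2% in Ins/Ins and fell by 20.4% in Ins/Del. The 3 C-type genes summed to 167 ± 14.7, 131 ± 21.5 and 146 ± 8.85, which fell by 21.6% in Ins/Ins and fell by 12.4% in Ins/Del. Each of these sums lay below the control in every mutant library, and the difference between subfamilies was not tested.

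Of the 22 gamma genes, 18 passed the filter on low counts and were tested, namely 11 A-type genes, 6 B-type genes and the C-type gene Pcdhgc3. The gamma genes too low for the fit were Pcdhga6, Pcdhgb6, Pcdhgc4 and Pcdhgc5. Tested with edgeR's quasi-likelihood method, adjusted by Benjamini-Hochberg over 14125 genes and called at 0.01, 5 of the 18 were lower in Ins/Ins and 0 were higher. No gamma gene was higher in Ins/Ins at an unadjusted p under 0.05 either (0 genes), nor with DESeq2 (0 genes). The transcriptome changed widely in these lines: 29.4% of all tested genes were lower and 29.0% higher in Ins/Ins, so the share of gamma genes called lower was close to that of all genes. In Ins/Del, 8 of the 18 were lower and 1 was higher, where 31.9% of all tested genes were lower and 30.6% higher. Called lower in both lines were 4 gamma genes, against 26.7% of all tested genes. Both comparisons use the same control libraries.

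Among tested genes with mean counts in the range of the 18 gamma genes, 7.0 to 137 normalized counts, 28.5% were lower in Ins/Ins and 30.1% in Ins/Del, a background added after seeing the data. In each mutant 16 of the 18 gamma genes had a negative log2 fold change, with a median of -0.60 in Ins/Ins and -0.72 in Ins/Del, where the median over all tested genes was 0.00 and -0.01. A gene can pass the filter through the control libraries alone, which favours decreases among the low genes tested. Over all 22 gamma genes, tested or not, the mean was below that of the control for 19 in Ins/Ins and for 20 in Ins/Del. Every library of the mutant lay below every control library for 8 of the 18 in Ins/Ins, against 34.2% of all tested genes, and for 9 of the 18 in Ins/Del, against 36.9%.

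**Figure D3:**
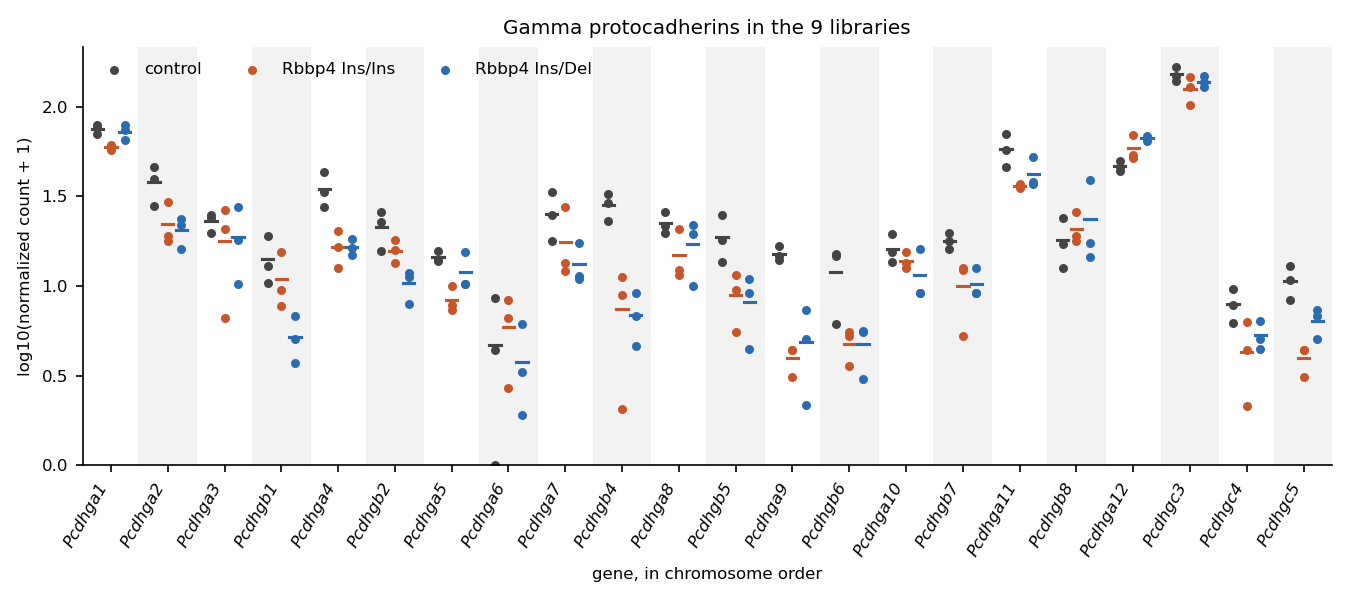
Normalized counts of the 22 gamma genes, in chromosome order, as log10(normalized count + 1), with a point for each library and a short line at the mean of each line (n = 3). The mutant points of Pcdhgb4 and Pcdhga9 lie below all control points, those of Pcdhga12 lie above them, and those of Pcdhgc3 overlap them.

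The largest decreases fell on Pcdhgb4 and Pcdhga9, a B-type and an A-type gene near the middle of the cluster, at positions 37720376 and 37736936. Pcdhgb4 had 33, 21 and 29 reads in the control libraries, 12, 7 and 1 in Ins/Ins, and 8, 4 and 5 in Ins/Del. No mutant library reached the lowest control library. Pcdhgb4 and Pcdhga9 passed the filter on low counts through the control libraries only, so a decrease was the only change open to them. Its log2 fold change was -2.01 ± 0.39 (SE) in Ins/Ins and -2.21 ± 0.40 in Ins/Del, with edgeR adjusted p = 2.1e-05 and 7.5e-06. Pcdhgb4 remained called under all 17 alternatives in which it was tested in each line, including DESeq2, a test against a 1.5-fold change and the removal of any 1 library.

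Pcdhga9 had 16, 15 and 12 reads in control, 4, 3 and 2 in Ins/Ins, and 4, 7 and 1 in Ins/Del, again without overlap between control and mutant libraries. Its log2 fold change was -2.19 ± 0.50 in Ins/Ins and -1.77 ± 0.47 in Ins/Del, with edgeR adjusted p = 2.2e-04 and 0.0011. In Ins/Ins the call held under all 17 alternatives in which the gene was tested. In Ins/Del it was lost with DESeq2 (adjusted p = 0.017), against a 1.5-fold change, and without Ins/Del replicate 3, where the log2 fold change was -1.40 and the edgeR adjusted p = 0.013.

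Pcdhga4 and Pcdhga2 were the other genes called lower in both lines. Pcdhga4 had 31, 31 and 39 reads in control, 18, 17 and 11 in Ins/Ins, and 17, 17 and 12 in Ins/Del, and the control and mutant libraries did not overlap. The log2 fold change was -1.11 ± 0.28 and -1.09 ± 0.28, with edgeR adjusted p = 7.1e-04 and 8.1e-04. The calls in both lines were lost without control replicate 3, at -0.92 (edgeR adjusted p = 0.011) in Ins/Ins and -0.89 (0.013) in Ins/Del, and held with DESeq2.

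Pcdhga2 had 45, 43 and 25 reads in control, 33, 16 and 16 in Ins/Ins, and 22, 23 and 13 in Ins/Del. After normalization the Ins/Ins libraries overlapped the control while the Ins/Del libraries were below it. The log2 fold change was -0.78 ± 0.26 (edgeR adjusted p = 0.0092) and -0.91 ± 0.27 (0.0029). These calls depended on single libraries. In Ins/Ins the call was lost without control replicate 1 or 2, Ins/Ins replicate 2 or 3, or Ins/Del replicate 1 or 2, with log2 fold changes between -0.77 and -0.61. In Ins/Del it was lost without control replicate 1 or 2 or Ins/Del replicate 3, between -0.88 and -0.75, and in neither line was it called with DESeq2.

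**Figure D4:**
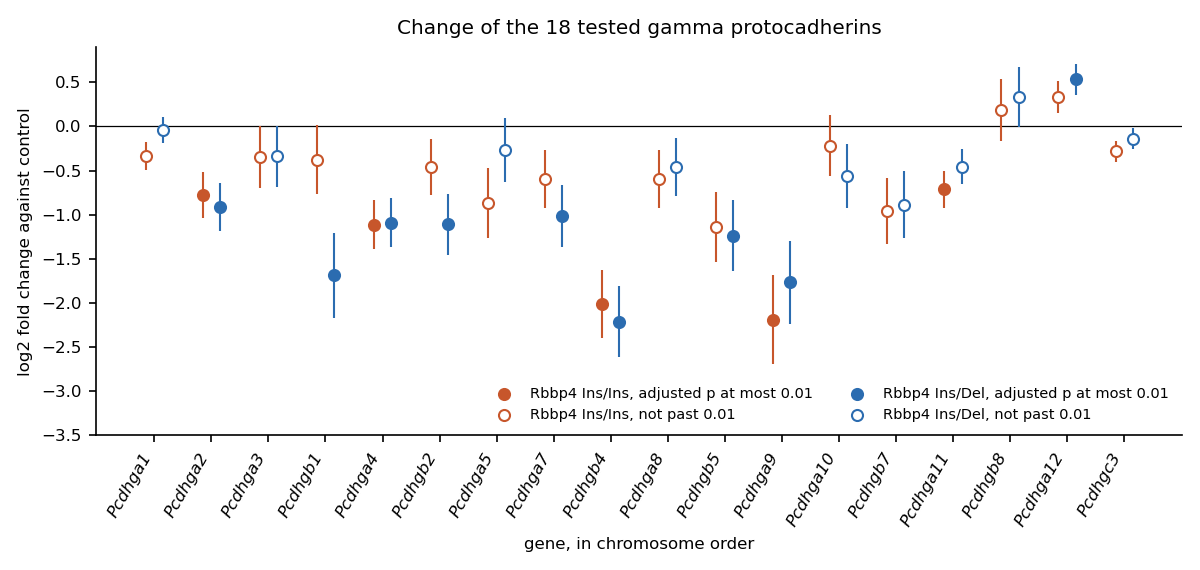
Log2 fold change of each tested gamma gene against control, with its SE as a bar, for Ins/Ins and Ins/Del, in chromosome order; filled points passed an adjusted p of 0.01 in edgeR's quasi-likelihood test. In each line 16 of 18 points lie below 0, and the exceptions in both lines are Pcdhgb8 and Pcdhga12, near the end of the cluster.

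Called in Ins/Ins and not in Ins/Del was Pcdhga11, an A-type gene. It had 81, 43 and 52 reads in control, 40, 32 and 33 in Ins/Ins, and 36, 57 and 31 in Ins/Del, so that after normalization the Ins/Ins libraries were all below the control and the Ins/Del libraries overlapped it. Its log2 fold change was -0.71 ± 0.20 in Ins/Ins (edgeR adjusted p = 0.0024) and -0.46 ± 0.20 in Ins/Del (0.039). The Ins/Ins call was lost with DESeq2 (adjusted p = 0.0202), and without control replicate 1 or Ins/Ins replicate 1, at -0.53 and -0.68. A gene on the opposite strand, Gm26672, overlaps 29.0% of the exonic bases of Pcdhga11, and how the counting used strand is not given in the sources used here.

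Called in Ins/Del and not in Ins/Ins were 3 B-type genes, Pcdhgb1, Pcdhgb2 and Pcdhgb5, and the A-type gene Pcdhga7. Pcdhgb1 had 21, 9 and 11 reads in control, 17, 6 and 8 in Ins/Ins, and 4, 3 and 5 in Ins/Del, and only the Ins/Del libraries lay apart from the control. Its log2 fold change was -1.69 ± 0.48 in Ins/Del (edgeR adjusted p = 0.0023) and -0.38 ± 0.39 in Ins/Ins (0.401). The call was lost without control replicate 1 or Ins/Del replicate 2, between -1.43 and -1.36. No Ins/Del library of Pcdhgb1 reached the level of the filter on low counts after scaling to library size, which favours a decrease there.

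Pcdhgb5 had 20, 12 and 22 reads in control, 10, 4 and 10 in Ins/Ins, and 8, 11 and 3 in Ins/Del. Both mutants lay below the control, at -1.14 ± 0.40 in Ins/Ins (edgeR adjusted p = 0.011) and -1.24 ± 0.40 in Ins/Del (0.0064), so the lines fell on either side of the limit with similar values. Without control replicate 2 the Ins/Ins value was -1.31 and passed it (0.0070). As with Pcdhgb1, no Ins/Del library of Pcdhgb5 reached the level of the filter on low counts after scaling to library size. Pcdhgb2 had 29, 14 and 20 reads in control, 20, 11 and 14 in Ins/Ins, and 10, 12 and 6 in Ins/Del, with -0.46 ± 0.31 (edgeR adjusted p = 0.194) and -1.11 ± 0.35 (0.0047). Pcdhga7 had 38, 16 and 22 reads in control, 13, 11 and 25 in Ins/Ins, and 16, 11 and 9 in Ins/Del, with -0.60 ± 0.33 (0.104) and -1.02 ± 0.35 (0.0094). For Pcdhgb2 and Pcdhga7 the Ins/Del libraries lay below the control after normalization and the Ins/Ins libraries overlapped it.

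The calls of Pcdhgb2 and Pcdhgb5 in Ins/Del were both lost without control replicate 1, control replicate 3, Ins/Del replicate 1 or Ins/Del replicate 3, with log2 fold changes between -1.17 and -0.93 for Pcdhgb2 and between -1.31 and -0.95 for Pcdhgb5. That of Pcdhga7 was lost without control replicate 1 or 3, Ins/Ins replicate 2, or Ins/Del replicate 2 or 3, between -1.03 and -0.72. The number of gamma genes called lower in Ins/Del was 4 without control replicate 1, 4 without control replicate 3 and 3 without Ins/Del replicate 3, against 8 with all libraries. The 4 without control replicate 1 include Pcdhgb6, which is not among the 8. It was tested only because it then passed the filter, through control libraries only. With DESeq2 it was 2 in Ins/Del (Pcdhga4 and Pcdhgb4) and 3 in Ins/Ins (Pcdhga4, Pcdhga9 and Pcdhgb4).

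The 2 mutant lines were also compared with each other. None of the 18 gamma genes passed 0.01 in Ins/Del against Ins/Ins by edgeR's quasi-likelihood test (0 higher and 0 lower), where 6.17% of all tested genes were higher and 4.64% lower. DESeq2 also called 0, but 41 of the 50 cluster genes in that fit were given no adjusted p, so they could not be called. At an unadjusted p under 0.05 there was 1, Pcdhgb1, with a log2 difference of -1.31 ± 0.51 (edgeR adjusted p = 0.070). The genes called in a single mutant are therefore not shown to differ between the lines.

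Pcdhga12, the last A-type gene, stood against the others. It had 50, 43 and 45 reads in control, 62, 61 and 48 in Ins/Ins, and 64, 75 and 55 in Ins/Del, and after normalization every mutant library was above every control library. The normalized count was 45.5 ± 3.01 in control, 57.5 ± 9.85 in Ins/Ins and 65.6 ± 2.02 in Ins/Del. This gave a log2 fold change of 0.33 ± 0.18 in Ins/Ins (edgeR adjusted p = 0.102) and 0.53 ± 0.18 in Ins/Del (0.0072), the only call of a higher gamma gene. It was lost with DESeq2 (adjusted p = 0.040) and without control replicate 1, control replicate 2 or any of the 3 Ins/Del libraries, at 0.49 to 0.56. The opposite-strand gene Gm26672 overlaps 6.33% of its exonic bases. Pcdhgb8, its neighbour, which RefSeq annotates as a pseudogene, also had positive values, 0.18 ± 0.35 and 0.33 ± 0.34, which did not pass the test (edgeR adjusted p = 0.655 and 0.389).

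The C-type gene Pcdhgc3, known to bind the Wnt pathway scaffold Axin1, had the highest count of the 58 genes. It had 162, 141 and 153 reads in control, 118, 129 and 121 in Ins/Ins, and 133, 141 and 127 in Ins/Del, with overlap between all lines after normalization. The log2 fold change was -0.28 ± 0.12 in Ins/Ins (edgeR adjusted p = 0.040) and -0.14 ± 0.12 in Ins/Del (0.305), neither past the limit. Without Ins/Ins replicate 2 the Ins/Ins value was -0.40 and passed it (edgeR adjusted p = 0.0086). An antisense gene, BC037039, overlaps 28.4% of the exonic bases of Pcdhgc3, and reads of either cannot be separated without strand.

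The other C-type genes lay near the floor. Pcdhgc4, the isoform that mouse interneurons need to survive, had 8, 5 and 8 reads in control, 4, 1 and 5 in Ins/Ins, and 4, 6 and 3 in Ins/Del, and after normalization both mutants overlapped the control. Pcdhgc5 had 14, 7 and 9 reads in control, 4, 3 and 2 in Ins/Ins, and 4, 7 and 5 in Ins/Del, and after normalization all 6 mutant libraries were below the control. Its mean was 9.68 normalized counts in control, 2.97 in Ins/Ins and 5.40 in Ins/Del. Pcdhgb6, also too low for the fit, had 6, 13 and 13 reads in control, 3, 4 and 4 in Ins/Ins, and 2, 5 and 4 in Ins/Del, below the control in each mutant library. Without control replicate 1, Pcdhgb6 passed the filter through control libraries only, so a decrease was the only change open to it. It was then called lower in both mutants, at -1.88 and -1.86 (edgeR adjusted p = 0.0028 in each).

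Pcdhga1, the first gene of the cluster, was the second most counted. It had 81, 72 and 72 reads in control, 69, 50 and 57 in Ins/Ins, and 63, 86 and 63 in Ins/Del. After normalization the Ins/Ins libraries were below the control and the Ins/Del libraries overlapped it, with log2 fold changes of -0.33 ± 0.16 (edgeR adjusted p = 0.058) and -0.04 ± 0.15 (0.814).

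The make-up of the gamma counts was compared between the lines. Pcdhgc3 and Pcdhga1 had the highest means in each of the 3 lines, and together they took 34.6% ± 2.96 of the gamma counts in control, 39.3% ± 3.35 in Ins/Ins and 41.97% ± 0.31 in Ins/Del (SD, n = 3). The control libraries ran from 31.3% to 37.1%, the Ins/Ins libraries from 35.6% to 42.02% and the Ins/Del libraries from 41.7% to 42.3%, so that only Ins/Del lay apart from the control. The other 20 genes summed to 427 ± 42.5 normalized counts in control, 283 ± 6.39 in Ins/Ins and 288 ± 10.9 in Ins/Del, and fell by 33.8% in Ins/Ins and fell by 32.6% in Ins/Del, a sum added after seeing the data. Pcdhga12 took 6.996% ± 0.53 in control, 12.3% ± 1.79 in Ins/Ins and 13.2% ± 0.86 in Ins/Del. It was the third most counted gamma gene in each mutant, whereas Pcdhga11 held that place in control.

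**Figure D5:**
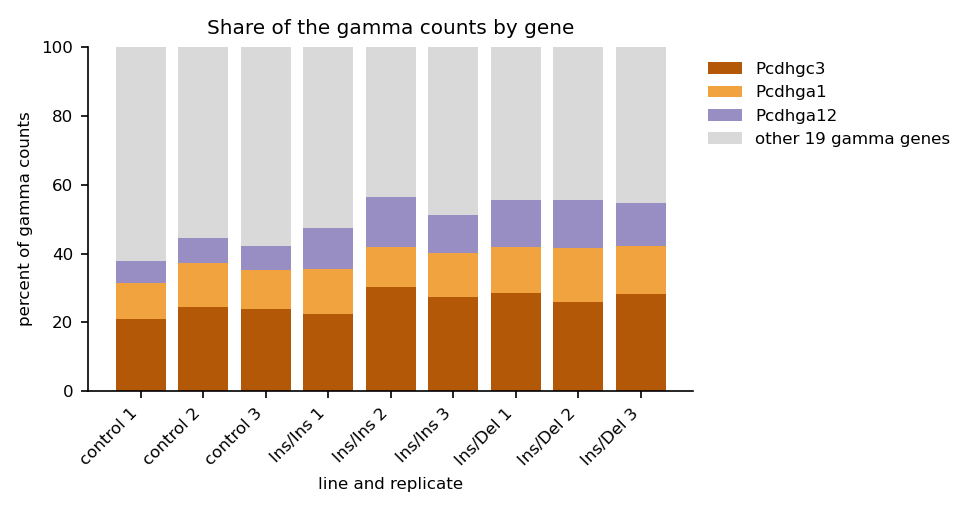
Percent of the gamma cluster counts in each library that fell on Pcdhgc3, Pcdhga1, Pcdhga12 and the other 19 gamma genes together. Pcdhgc3 and Pcdhga1 together take 31.3% to 37.1% in the control libraries and 35.6% to 42.3% in the mutant libraries.

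Levels between genes were compared per kilobase of a gene's own exon. On that scale Pcdhgc3 led in each line, at 44.6 normalized counts per kilobase in control, 36.9 in Ins/Ins and 40.4 in Ins/Del. In control Pcdhga1 at 22.9, Pcdhga11 at 21.6 and Pcdhga4 at 21.5 followed, in an order that was not tested. Pcdhga4 has the fewest own bases of the gamma genes, 1570 by GENCODE M21. The annotation behind the counts is not given, so its level per kilobase may be too high. In the mutants Pcdhga1 was at 18.04 and 22.1, whereas Pcdhga4 was at 9.81 and 9.89, and Pcdhga12 went from 10.01 to 12.7 and 14.4. Pcdhgb4 was at 7.58 in control and at 1.79 and 1.63 in the mutants.

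Marker lists of other cell types were examined too. Of all tested genes, 29.0% were higher and 29.4% lower in Ins/Ins, and 30.6% and 31.9% in Ins/Del. In both mutants 25.6% were higher and 26.7% lower, and these short lists were not tested against such shares. The fibroblast list (Col1a1, Col1a2, Col3a1, Thy1, Pdgfrb, Lum and Dcn) summed to 33.8 to 40.3 CPM in control, 15.04 to 16.5 in Ins/Ins and 19.3 to 21.03 in Ins/Del. Of its 5 tested genes, 4 were lower and 1, Thy1, was higher in both mutants, and Lum was at or near 0. The neural progenitor list (Sox1, Pax6, Nes, Fabp7 and Olig2) summed to 140 to 142 CPM in control, 22.5 to 24.04 in Ins/Ins and 20.7 to 22.6 in Ins/Del. Its tested genes Pax6 and Nes were lower and Sox1 was not called, while Fabp7 and Olig2 never exceeded 3 reads. The neuron list (Tubb3, Map2, Rbfox3, Snap25, Syt1, Dcx and Stmn2) summed to 239 to 258, 294 to 299 and 322 to 331, with 2 genes higher and 3 lower in both mutants. The primitive endoderm list (Gata4, Gata6, Sox17, Sox7, Foxa2 and Dab2) summed to 19.05 to 21.1, 10.5 to 13.7 and 14.8 to 16.6. Of its 5 tested genes, 1 was higher and 2 lower in Ins/Ins; for Ins/Del the counts were 3 and 2. The part of such cells in the lower gamma counts was not tested.

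Genes that are known to control the clusters were examined as a list of 19, all of which were tested. In Ins/Ins 6 were higher and 8 lower, where 29.0% and 29.4% of all tested genes were. In Ins/Del 7 were higher and 8 lower, against 30.6% and 31.9%, and in both mutants 6 were higher and 7 lower, against 25.6% and 26.7%. Dnmt3b, a DNA methyltransferase that methylates protocadherin promoters, had 10335 ± 324 normalized counts in control, 4271 ± 67.3 in Ins/Ins and 4540 ± 121 in Ins/Del, without overlap. Its log2 fold changes were -1.27 ± 0.03 and -1.19 ± 0.03, and those of Dnmt3a, the related de novo methyltransferase, were -1.65 ± 0.04 and -1.31 ± 0.04. The cohesin subunits Stag2 (-0.84 and -0.79) and Stag1 (-0.36 and -0.49) were lower in both lines. The DNA-binding looping factor Ctcf changed little, at -0.10 ± 0.03 in Ins/Ins and -0.11 ± 0.03 in Ins/Del (edgeR adjusted p = 0.0055 and 0.0029), calls that were lost in 6 of the alternatives in each line. These included leaving out control replicate 1 or 3, Ins/Ins replicate 1 or 3 (Ins/Ins, at -0.11 to -0.07) and control replicate 1 or 3 or Ins/Del replicate 2 or 3 (Ins/Del, at -0.11 to -0.09).

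Of the silencers of the clusters in the same list, Smchd1, a non-canonical SMC protein, was at -0.10 ± 0.04 in Ins/Ins (edgeR adjusted p = 0.012) and -0.19 ± 0.04 in Ins/Del (1.4e-05). Without control replicate 2 or Ins/Ins replicate 2 the Ins/Ins value of Smchd1 passed the limit, at -0.13 and -0.14. Setdb1, a histone H3 lysine 9 methyltransferase, was higher, at 0.25 ± 0.03 and 0.28 ± 0.03, and Rest, the repressor of neuronal genes, was at 0.19 ± 0.04 and 0.30 ± 0.04. The call of Rest in Ins/Ins was lost with DESeq2 (adjusted p = 0.035).

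Of 17 partners and effectors of the proteins, 16 were tested, 5 were higher and 7 lower in both mutants, where 25.6% and 26.7% of all tested genes were, and 1 more was lower in Ins/Del. Higher in both were the receptor tyrosine kinase Ret (1.24 and 1.34 on the log2 scale), the kinase Ptk2b (0.67 and 0.81), which gamma protocadherins inhibit, Adam10 (0.53 and 0.75), the protease that sheds their extracellular part, and Brk1 (0.44 and 0.54), a subunit of the WAVE actin regulatory complex. Src, a kinase, was lower in both (-0.56 and -0.54), as were the kinase Ptk2 and the WAVE complex subunits Wasf1, Cyfip1, Cyfip2 and Nckap1.

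The genes that flank or lie between the clusters did not move in one direction. Of 17 listed neighbours, at positions 36725064 to 38212048 of the same chromosome, 16 were tested, with 5 higher and 4 lower in Ins/Ins, 4 higher and 6 lower in Ins/Del, and 4 higher and 4 lower in both, against 25.6% and 26.7% of all tested genes. Taf7, a TFIID subunit gene between the beta and gamma clusters, was at 0.08 ± 0.04 and 0.09 ± 0.04 (edgeR adjusted p = 0.059 and 0.034). It passed the limit without Ins/Ins replicate 1, at 0.14 and 0.10, and in Ins/Del also without control replicate 1, at 0.13. Slc25a2, a mitochondrial carrier gene beside it, rose in Ins/Ins at 1.10 ± 0.36 (edgeR adjusted p = 0.0081) and was at 0.55 ± 0.40 in Ins/Del (0.213), on means of 8.26, 18.5 and 12.4 normalized counts. The Slc25a2 call was lost with DESeq2 and without control replicate 2 or 3, any Ins/Ins library, or Ins/Del replicate 1, at 0.88 to 1.21.

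Diaph1, an actin nucleator gene just past the gamma cluster, was lower at -0.25 ± 0.03 and -0.33 ± 0.03. Further along lie Arap3, a regulator of small GTPases, at -2.43 ± 0.16 and -3.14 ± 0.18, and Pcdh1, a protocadherin outside the clusters, at -3.69 ± 0.13 and -4.13 ± 0.14. On the other side of the clusters Dnd1, an RNA-binding protein of germ cells, was at -1.35 ± 0.13 and -1.51 ± 0.13, while Ndufa2, a respiratory complex I subunit, was at 0.52 ± 0.06 and 0.37 ± 0.06, and Hars, a histidyl-tRNA synthetase, at 0.16 ± 0.04 and 0.21 ± 0.04. All of these passed the limit in both lines.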

How the data were processed

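The deposited files hold raw counts of reads per gene symbol for each of 9 libraries, prepared from total RNA with an mRNA library kit. The submitters' processing notes name STAR 2.7.3, HTSeq, DESeq2 1.22.2 and mm10; the HTSeq version, its overlap and strand settings and the gene annotation are not given in the sources used here. Samples were grouped by the genotype in their labels.

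All genes were fitted together with edgeR 4.0.16 (glmQLFit, glmQLFTest) in R 4.3.3, with TMM normalization, filterByExpr at a minimum count of 10, all 9 libraries in 3 groups and no block, which left 14125 genes. P-values were adjusted by Benjamini-Hochberg over these genes and called at 0.01. SE is the log2 fold change over the root of its F. Normalized counts are counts over effective library size, times the mean effective size. A floor of 3 reads in a library was used. Gene positions came from RefSeq and exon overlap from GENCODE M21. The fit was tested on simulated data.

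Genes named with values are the C-type genes, the 3 with the highest mean count in each cluster, and those called in both mutants; genes called in 1 mutant, Pcdhgb6, Pcdhgb8, Pcdhga6, Pcdhb2, Pcdhb8 and 5 further partner genes were added after their values were seen. The members and lists were chosen with earlier results of these data known. Alternatives were DESeq2 1.42.0, other scalings, filters and limits, a replicate block, a test against 1.5-fold and leaving out each library.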

Additional observations from a re-analysis of the deposited data

Results flagged for a closer look

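Among the genes reported above, 13 differed between the mutant lines in the test of that difference itself, and none of them is a clustered protocadherin. That test was edgeR's quasi-likelihood test of Ins/Del against Ins/Ins, at an adjusted p of at most 0.01. The shares of all tested genes were 6.17% higher and 4.64% lower, and the 13 genes were not tested against them. Rbbp4 was higher in Ins/Del by 0.89 on the log2 scale. Dnmt3a, a regulator of the clusters that was lower in both mutants, was higher in Ins/Del by 0.34, with 1291 ± 11.6 against 1024 ± 47.3 normalized counts (SD, n = 3). Adam10, the sheddase of the proteins, was higher in Ins/Del by 0.21, with 1339 ± 7.55 against 1156 ± 40.3. The WAVE complex subunits Cyfip1 and Cyfip2 differed by 0.13 and -0.21. Of the stem cell markers, Zfp42 differed by 0.15, Tdgf1 by 0.11, Sox2 by -0.10 and Dppa5a by -0.19. Of the other marker lists, Tubb3 differed by 0.42, Pax6 by -1.31, Thy1 by 0.34 and Sox7 by 0.59. With 3 libraries a line, single libraries far from the others were not searched for.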

How the results depend on the processing

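No called result changed direction under an alternative. The shares of all tested genes called under each alternative are not given, so the counts below show only how the calls move. The number of gamma genes lower in Ins/Ins, 5 in the reported fit, was 3 with DESeq2, 1 at a minimum count of 30, 8 at an adjusted p of 0.05 and 2 in a test against 1.5-fold. It was 4 to 5 when single libraries were left out, but not always the same genes. Pcdhgb6 entered without control replicate 1, Pcdhgb5 without control replicate 2 and Pcdhgc3 without Ins/Ins replicate 2. Of the 5 reported, only Pcdhga9 and Pcdhgb4 stayed called whichever library was left out. The number lower in Ins/Del, 8 in the reported fit, was 2 with DESeq2, 0 at a minimum count of 30, 1 against 1.5-fold and 3 to 8 without single libraries. Without control replicate 1 that number includes Pcdhgb6, which is not among the 8 and then passed the filter through control libraries only. At an adjusted p of 0.05, Pcdhga11 (edgeR adjusted p = 0.039) and Pcdhgb7 (0.034) were also called lower in Ins/Del. The number higher in Ins/Del, 1, was 0 with DESeq2, 0 against 1.5-fold and 0 to 1 without single libraries. A minimum count of 30 left 4 members in the fit (Pcdhga1, Pcdhga11, Pcdhga12 and Pcdhgc3); the cause of the DESeq2 difference was not tested. Without Pcdhgc3 and Pcdhga1 the log2 ratio of the gamma sum was -0.60 in Ins/Ins and -0.57 in Ins/Del, against -0.48 and -0.39. Leaving out Pcdhga12 too gave -0.76, -0.78 and -0.0175 between the mutants; that gene has its rank only through the mutant libraries, so its removal enlarges the decrease by construction. Both sums were added after seeing the data. Without Pcdhb22 the beta log2 ratio of Ins/Del against Ins/Ins was -0.70, against -0.33 with it. Other scalings changed no call of a cluster gene.

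Replicate numbers did not pair the samples: deviations of same-numbered libraries correlated between -0.03 and 0.06 across genes, and not every library correlated best with its own number. A replicate block left 5 gamma genes lower in Ins/Ins, 7 lower in Ins/Del (without Pcdhga7) and 1 higher. Reads per gene limit these comparisons: no alpha or beta gene passed the filter of the reported fit.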
